A study of Mus musculus with 18 samples.

Results

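Type I interferon-stimulated genes were compared across 3 sorted subsets of mouse colon dendritic cells. Untreated arrays and arrays with dextran sulfate sodium (DSS) treatment belonged to separate experiments. The members were chosen by gene symbol, from a list of 37 genes: 35 had a probe set of their own on the Affymetrix arrays, among 19937 genes measured, and all 35 were tested among 14003 genes. Isg15, which encodes a ubiquitin-like protein, was represented only by a probe set that also carries the symbol Gm9706, and no probe set listed Ifi44, so neither gave a value. Where a gene had several probe sets, the one with the highest mean over all arrays was to stand for it, but each of the 35 had 1. The list was made with earlier results of these data known and sets no threshold on a measured value.

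The cells came from the colon lamina propria of BALB/c mice aged 8 weeks, and were sorted within an MHC+CD11chigh gate. One subset was CD103+CD11b-, another carried both markers (CD103+CD11b+), and the last was CD103-CD11b+. Each was taken without DSS (experiments 1, 2 and 3) and with 2% DSS (experiments 4, 5 and 6), which injures the colon epithelium and causes colitis. That gave 6 groups of 3 arrays, 18 arrays in all, and each experiment gave 1 array of every subset. No experiment held both conditions, so experiments and DSS treatment cannot be told apart. The sources used here give neither the number of mice behind an array nor the days of DSS, so the p-values reflect only variation among these arrays, which may be partly technical. Total RNA of 5 ng was amplified for each array. The deposited values are log2 expression.

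Type I interferons are made by cells that sense viral or bacterial nucleic acid, and they signal through the receptor chains IFNAR1 and IFNAR2. The kinases JAK1 and TYK2 then activate the transcription factor complex ISGF3, which holds STAT2 and IRF9. ISGF3 binds the interferon-stimulated response element (ISRE) in the promoters of many interferon-stimulated genes. The products of such genes sense viral RNA, degrade it, block its translation or stop virus particles from leaving the cell. Type III interferon feeds the same complex, and in the gut epithelium it is a main inducer of these genes.

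Promoter sequences of 28 of the 37 members were found in RefSeq (mouse, GRCm38.p6), each from 250 bases before the start of transcription to 50 bases after it. The ISRE core was searched on both strands as GAAA, any 2 bases and GAAA again. It occurred in the promoters of 13 of the 28 members (46.4%) and in 3.99% of 27025 genes with a promoter. A match is a description of the letters and not a site of binding. The 250 bases before the start are shown for 4 members that hold the ISRE core, those with the widest range of group means among the members with a match there. Each is written 5′ to 3′ on the gene's own strand, and capitals mark the ISRE core, which on the opposite strand reads TTTC, any 2 bases and TTTC. The Oas1a promoter lies at chr5:120907526-120907775 on the minus strand, and its 2 overlapping matches begin 20 and 14 bases before the start. The Ifit1 promoter lies at chr19:34640639-34640888 on the plus strand, with matches 104 and 85 bases before the start. The Trim30a promoter lies at chr7:104465194-104465443 on the minus strand, with a match 36 bases before the start. The Ifit3 promoter lies at chr19:34583279-34583528 on the plus strand, with matches 156 and 122 bases before the start.
Oas1a: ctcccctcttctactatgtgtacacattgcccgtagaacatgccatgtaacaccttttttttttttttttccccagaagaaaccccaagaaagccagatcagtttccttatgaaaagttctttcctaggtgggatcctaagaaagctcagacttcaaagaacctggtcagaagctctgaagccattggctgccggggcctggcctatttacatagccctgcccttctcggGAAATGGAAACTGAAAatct
Ifit1: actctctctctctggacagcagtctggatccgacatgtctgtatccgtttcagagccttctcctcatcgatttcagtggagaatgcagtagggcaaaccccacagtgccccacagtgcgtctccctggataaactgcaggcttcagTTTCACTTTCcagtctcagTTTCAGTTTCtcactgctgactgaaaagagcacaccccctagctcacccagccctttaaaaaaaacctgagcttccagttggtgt
Trim30a: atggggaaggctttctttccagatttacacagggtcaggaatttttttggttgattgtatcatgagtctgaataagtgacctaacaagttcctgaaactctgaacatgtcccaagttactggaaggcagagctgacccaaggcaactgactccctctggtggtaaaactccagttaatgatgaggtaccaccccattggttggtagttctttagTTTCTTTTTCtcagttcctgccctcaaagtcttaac
Ifit3: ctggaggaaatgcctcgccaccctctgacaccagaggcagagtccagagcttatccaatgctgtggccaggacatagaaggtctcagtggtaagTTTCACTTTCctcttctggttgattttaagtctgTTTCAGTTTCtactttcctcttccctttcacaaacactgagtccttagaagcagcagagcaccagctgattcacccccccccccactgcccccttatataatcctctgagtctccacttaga

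The 6 groups overlapped in the mean level of these genes. Each array was scored by the mean log2 value over the 35 members. In untreated mice the score averaged 6.30 ± 0.17 (SD, n = 3) in CD103+CD11b- cells, 6.29 ± 0.22 in CD103+CD11b+ cells and 6.41 ± 0.14 in CD103-CD11b+ cells. With DSS it averaged 6.16 ± 0.15, 6.13 ± 0.21 and 6.30 ± 0.19 in the same order. No p is given for the score because the members were chosen together. Within experiments, the CD103-CD11b+ array scored above the CD103+CD11b- array of the same experiment in all 6, by 0.03 to 0.19 on the log2 scale. With the median over members in place of the mean, that order turned in experiment 3 (6.39 against 6.42) and experiment 4 (5.93 against 6.08). The untreated difference of -0.11 between the means of CD103+CD11b- and CD103-CD11b+ cells ranged from -0.18 (without untreated CD103-CD11b+ replicate 1) to -0.02 (without untreated CD103+CD11b- replicate 1) when 1 array was left out. Leaving out 1 array unpairs its experiment, so that range also takes in the difference between experiments. The paired differences were -0.16, -0.14 and -0.03 in experiments 1, 2 and 3.

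The score differed as much between experiments of 1 condition as between groups. Over the 3 subsets it averaged 6.14 in experiment 1, 6.44 in experiment 2 and 6.42 in experiment 3, a range of 0.294. Among the DSS experiments it averaged 6.03 in experiment 4, 6.38 in experiment 5 and 6.17 in experiment 6, a range of 0.351. The 6 group means spanned 0.284. The mean over all tested genes moved by 0.031 among untreated and 0.019 among DSS experiments. The submitters' notes name a processing with quantile normalization, which gives all arrays nearly the same distribution of values. The mean over all tested genes could therefore move little in any case, and it is no yardstick for the range of the score. Every array of experiment 1 scored below every array of experiments 2 and 3. The arrays of experiment 4 lay at 5.90, 6.07 and 6.12, those of experiment 5 at 6.31, 6.33 and 6.51, and those of experiment 6 at 6.07, 6.18 and 6.27, so that experiments 4 and 6 overlapped. By the median over members, the CD103-CD11b+ array of experiment 1 (6.25) lay above the CD103+CD11b- array of experiment 2 (6.16). In the order CD103+CD11b-, CD103+CD11b+ and CD103-CD11b+, the medians were 6.08, 5.93 and 5.93 in experiment 4. They were 5.80, 6.03 and 6.10 in experiment 6, which held the lowest array of all 18. That experiment 4 was the lowest with DSS therefore rests on the mean over members.

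**Figure D1:**
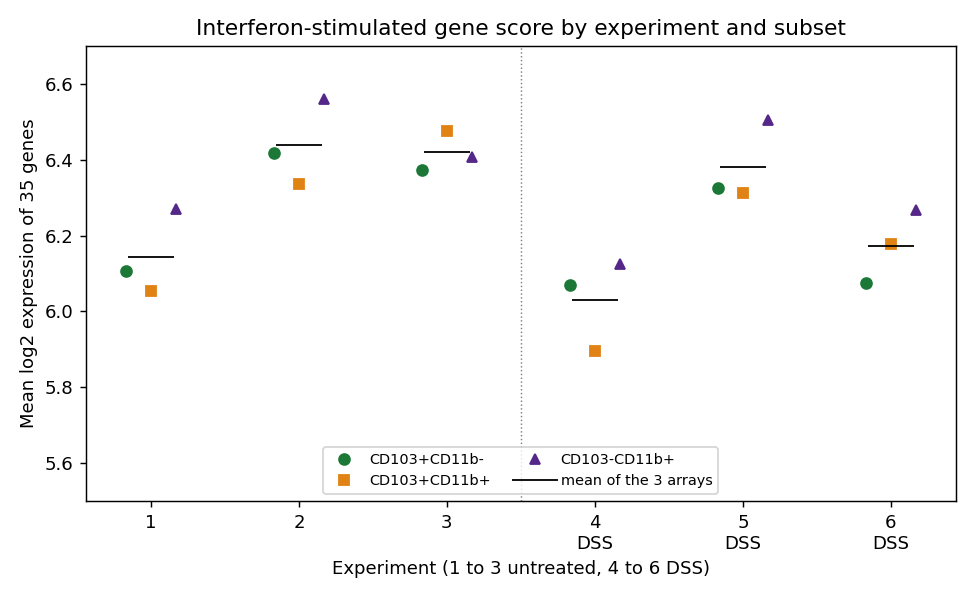
Mean log2 expression of the 35 interferon-stimulated genes on each of 18 arrays, by experiment (1 to 3 untreated, 4 to 6 DSS). Points are single arrays, coloured by subset, and black lines are the mean of the 3 arrays of an experiment. Experiments 1 and 4 lie lowest within their condition, at 6.14 and 6.03.

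Some members were higher and others lower in CD103+CD11b- cells than in the CD11b+ subsets. Against CD103-CD11b+ cells, untreated CD103+CD11b- cells had 3 members higher and 3 lower of 35 by limma's moderated test at an adjusted p under 0.05 (Benjamini-Hochberg over all 14003 genes), where 10.3% of all genes were called, 5.01% higher and 5.32% lower. The higher ones were Trim30a, Oasl1 and Mx1, and the lower ones Lgals3bp, Rtp4 and Ddx58. The median difference over members was -0.12, against 0.01 over all genes. With the experiment number as a replicate block 10 members were called (11.0% of all genes), 5 in each direction: the 6 above and Samd9l, Stat2, Rsad2 and Xaf1. Against untreated CD103+CD11b+ cells, CD103+CD11b- cells had 4 members higher and 3 lower, and 6.86% of all genes were called, 2.76% higher and 4.09% lower. These were Trim30a, Samd9l, Mx1 and Oasl1 on the higher side and Rtp4, Ddx58 and Lgals3bp on the lower. The median was 0.04 against -0.06 over all genes, and the replicate block gave 11 calls (8.25% of all genes), 5 higher and 6 lower, adding Mx2, Oas2, Isg20 and Xaf1. Without untreated CD103+CD11b- replicate 1 the 7 calls fell to 4.

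Between the CD11b+ subsets few members differed. In untreated mice Lgals3bp alone was called, lower in the CD103+ of the pair, and 4.11% of all genes were called. The replicate block added Rsad2, for a total of 2 (4.98% of all genes). Without untreated CD103-CD11b+ replicate 1, untreated CD103+CD11b+ replicate 3 or untreated CD103-CD11b+ replicate 3, 2 members were called. The median difference was -0.03 over members and 0.07 over all genes.

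With DSS the same contrasts called 4, 4 and 1 members, against 6, 7 and 1 untreated, and the difference between these counts was not tested. DSS CD103+CD11b- cells had 1 member higher (Mx1) and 3 lower (Lgals3bp, Rtp4, Ifitm3) than DSS CD103-CD11b+ cells, where 8.53% of all genes were called, 4.19% higher and 4.34% lower. The median difference was -0.14 over members and -0.01 over all genes. Against DSS CD103+CD11b+ cells, 3 were higher (Mx1, Oasl1, Trim30a) and 1 lower (Ifitm3), and 5.96% of all genes were called, 3.56% higher and 2.39% lower. Between the DSS CD11b+ subsets Lgals3bp alone was called, where 1.58% of all genes were called. The replicate block gave 9, 10 and 2 calls in these 3 contrasts, where it called 9.60%, 6.78% and 2.18% of all genes. In the first it added Oasl1, Mx2, Ifit1, Ifit3, Ddx58 and Rsad2 and lost Ifitm3 (adjusted p = 0.067), in the second it added Mx2, Stat2, Ifit1, Ifit3, Ddx58 and Rtp4, and in the third Rsad2. Leaving out DSS CD103+CD11b- replicate 4 or DSS CD103-CD11b+ replicate 5 left 2 calls in the first contrast. Leaving out DSS CD103+CD11b- replicate 4 or 5, or DSS CD103+CD11b+ replicate 4 or 6, left 2 in the second.

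**Figure D2:**
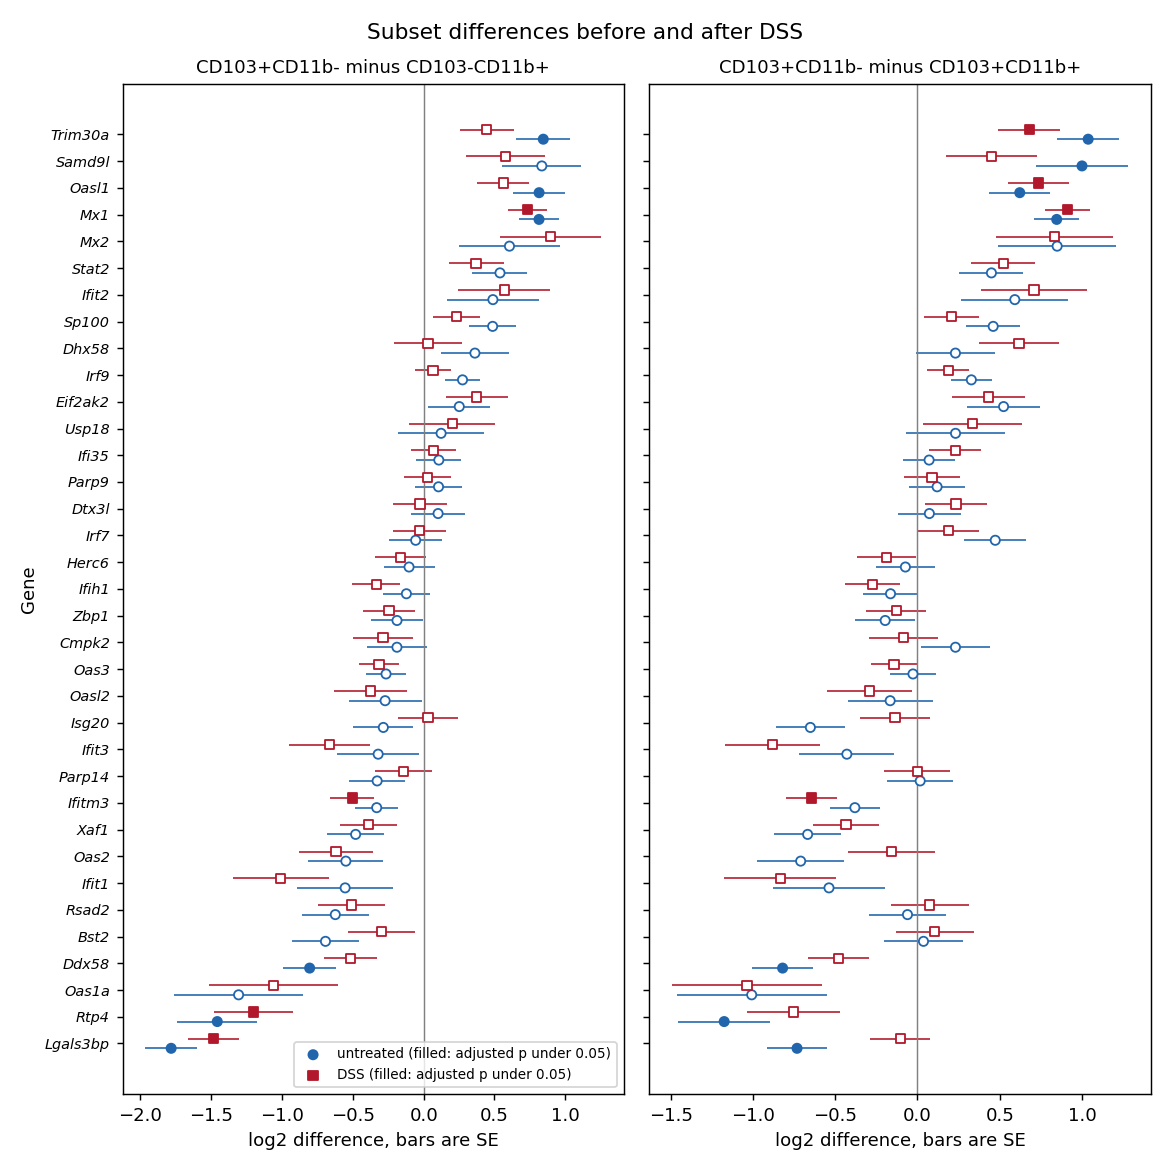
Log2 differences of the 35 genes between CD103+CD11b- cells and each CD11b+ subset, with limma's standard error as bars. Blue circles are untreated and red squares DSS, and filled symbols have an adjusted p under 0.05. Trim30a, Samd9l, Oasl1 and Mx1 lie on the positive side and Rtp4 and Lgals3bp on the negative side in both panels.

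The direction of these differences recurred across experiments. Between CD103+CD11b- and CD103-CD11b+ cells, 33 of 35 members had the same sign of mean difference untreated and with DSS, against 68.3% of all genes. In all 6 experiments taken singly, 20 members had 1 sign (20.3% of all genes did), among them Mx1, Oasl1 and Trim30a on the higher side and Ddx58, Rtp4 and Lgals3bp on the lower. Against CD103+CD11b+ cells, 32 of 35 kept their sign (64.4% of all genes), and 14 had 1 sign in all 6 experiments (17.3%). Between the CD11b+ subsets, 23 of 35 kept their sign (58.9%) and 5 had 1 sign in all 6 (11.3%), namely Bst2, Cmpk2, Lgals3bp, Oas3 and Rsad2, all lower in the CD103+ cells.

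**Figure D3:**
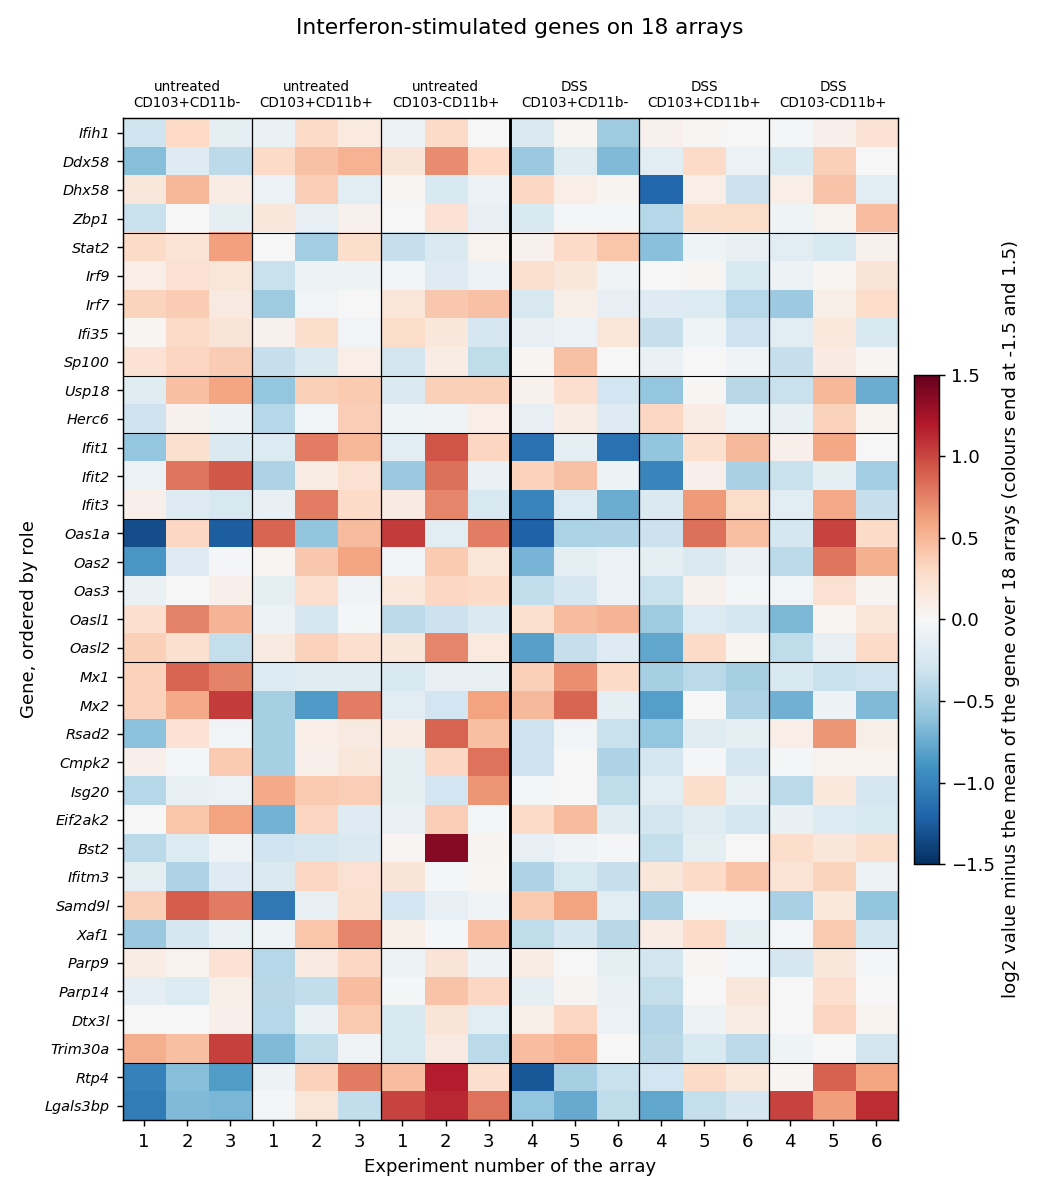
Log2 value of each of the 35 genes on each of 18 arrays minus the gene's mean over the arrays, with genes ordered by role and arrays by group and experiment number. Red is above and blue below the gene's mean. Rtp4 and Lgals3bp are low in CD103+CD11b- cells of both conditions, and Mx1 and Trim30a are high there.

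Among the sensors of viral nucleic acid, Ddx58 encodes RIG-I, the receptor for short RNA with a triphosphate end. In untreated mice its log2 values were 5.46, 5.90 and 5.71 in CD103+CD11b- cells (experiments 1, 2 and 3), 6.38, 6.53 and 6.62 in CD103+CD11b+ cells and 6.29, 6.80 and 6.39 in CD103-CD11b+ cells. All CD103+CD11b- values lay below all others. The differences were -0.82 ± 0.18 (SE, adjusted p = 0.00779) and -0.80 ± 0.18 (adjusted p = 0.00656). The first passed the threshold no longer without untreated CD103+CD11b- replicate 1 (adjusted p = 0.0519). With DSS the values were 5.53, 5.91 and 5.43, then from 5.93 to 6.38, then 5.87, 6.45 and 6.10, and the differences of -0.48 and -0.52 were not called (adjusted p = 0.175 and 0.107) except with the replicate block (adjusted p = 0.0299 and 0.0145). The other sensors, Ifih1 (MDA5, for long double-stranded RNA), Dhx58 (LGP2, which modulates both) and Zbp1 (a Z-form nucleic acid sensor that starts cell death), had no call.

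Among the signalling and transcription members, Stat2 and Irf9 encode parts of ISGF3 and Irf7 the factor that amplifies interferon production. Stat2 averaged 8.02 in untreated CD103+CD11b- cells, 7.57 in CD103+CD11b+ and 7.48 in CD103-CD11b+ cells. Its difference of 0.54 ± 0.19 from CD103-CD11b+ cells had an adjusted p of 0.0961, and 0.0238 with the replicate block. Irf9, Irf7, Ifi35 and the nuclear body gene Sp100 had no call in any subset contrast.

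Usp18, which removes ISG15 from proteins and blocks the receptor chain IFNAR2, had no call between subsets or among experiments (adjusted p = 0.0604 untreated and 0.149 with DSS). Its values were 5.91, 6.54 and 6.68 in untreated CD103+CD11b- cells, 5.51, 6.45 and 6.48 in CD103+CD11b+ cells and 5.88, 6.44 and 6.44 in CD103-CD11b+ cells. In each subset experiment 1 was the low one. With DSS they were 6.16, 6.34 and 5.80, then 5.51, 6.11 and 5.68, then 5.76, 6.59 and 5.34 in experiments 4, 5 and 6, with experiment 5 highest in each. The largest subset difference was 0.33 ± 0.30, with an adjusted p of 0.735. Herc6, the mouse ligase that attaches ISG15, had group means from 4.91 to 5.14 and no call.

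The IFIT proteins bind viral RNA and block its translation. Ifit1 values were 4.42, 5.23 and 4.77 in untreated CD103+CD11b- cells, 4.78, 5.76 and 5.49 in CD103+CD11b+ cells and 4.83, 5.93 and 5.32 in CD103-CD11b+ cells. In every untreated experiment the CD103+CD11b- array was the lowest, although the groups overlapped. With DSS they were 3.87, 4.86 and 3.87, then 4.40, 5.23 and 5.48, then 5.07, 5.57 and 4.99, and all DSS CD103+CD11b- values lay below all DSS CD103-CD11b+ values. That difference was -1.01 ± 0.34, with an adjusted p of 0.0782, and 0.00289 with the replicate block.

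Ifit2 ran the other way. Its values were 5.18, 6.07 and 6.21 in untreated CD103+CD11b- cells, 4.81, 5.38 and 5.49 in CD103+CD11b+ cells and 4.72, 6.10 and 5.18 in CD103-CD11b+ cells. The DSS values were 5.62, 5.71 and 5.20, then 4.28, 5.34 and 4.78, then 4.94, 5.12 and 4.76. The CD103+CD11b- array exceeded the CD103+CD11b+ array in all 6 experiments, and no difference was called (0.71 ± 0.32 with DSS, adjusted p = 0.295). Ifit3 values were 5.18, 4.92 and 4.86, then 4.99, 5.87 and 5.39, then 5.22, 5.84 and 4.86 in the untreated subsets, which overlapped. With DSS they were 4.12, 4.90 and 4.35, then 4.89, 5.74 and 5.37, then 4.93, 5.67 and 4.76, lowest in CD103+CD11b- cells of each experiment. The DSS difference from CD103+CD11b+ cells was -0.88 ± 0.29 (adjusted p = 0.0909, and 0.0104 with the replicate block). Ifit3b, a near copy, has a probe set of its own, and signal shared between the copies cannot be told apart here.

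The OAS enzymes make 2′-5′ oligoadenylate, which activates RNase L, and Oasl1 lacks that activity and in mice restrains translation of Irf7. Oas1a had the widest scatter among replicates. Its values were 3.95, 5.59 and 4.04 in untreated CD103+CD11b- cells, 6.16, 4.69 and 5.75 in CD103+CD11b+ cells and 6.32, 5.13 and 6.05 in CD103-CD11b+ cells. Experiment 2 went against experiments 1 and 3: there the CD103+CD11b- array was the highest. With DSS the values were 4.07, 4.81 and 4.82, then 4.96, 6.11 and 5.73, then 5.01, 6.30 and 5.56, and all DSS CD103+CD11b- values lay below all others. None of its differences was called: the untreated one from CD103-CD11b+ cells was -1.31 ± 0.45 (adjusted p = 0.0816). A further probe set is shared by Oas1a and Oas1g, so signal from Oas1a relatives could enter.

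Oasl1 values were 9.11, 9.60 and 9.36 in untreated CD103+CD11b- cells, 8.78, 8.59 and 8.83 in CD103+CD11b+ cells and 8.46, 8.53 and 8.63 in CD103-CD11b+ cells. The CD103+CD11b- values lay above the rest. The differences were 0.62 ± 0.19 (adjusted p = 0.0498) and 0.81 ± 0.19 (adjusted p = 0.00609). The first was lost in 17 of 24 alternatives, with an adjusted p of up to 0.193 at the threshold: it was lost with any array left out other than untreated CD103+CD11b- replicate 1, DSS CD103-CD11b+ replicate 4 and DSS CD103-CD11b+ replicate 6, with no filter and in a fit of the compared groups alone. With DSS the values were 9.09, 9.33 and 9.36, then 8.31, 8.64 and 8.61, then 8.18, 8.88 and 9.04, and again no CD103+CD11b- value was below any other. The DSS difference from CD103+CD11b+ cells was 0.74 ± 0.19 (adjusted p = 0.0187), and it lost the call without DSS CD103+CD11b+ replicate 4, DSS CD103+CD11b- replicate 5 or DSS CD103+CD11b- replicate 6 (adjusted p of up to 0.111). Oas2, Oas3 and Oasl2 had no call.

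Among the antiviral effectors, Mx1 encodes a GTPase that traps viral nucleoproteins, and BALB/c, like many laboratory strains, carries a defective Mx1 gene, so the transcript is read here without its protein. Its values were 5.04, 5.57 and 5.45 in untreated CD103+CD11b- cells, 4.49, 4.52 and 4.51 in CD103+CD11b+ cells and 4.46, 4.57 and 4.58 in CD103-CD11b+ cells. The DSS values were 5.05, 5.39 and 4.99, then 4.20, 4.29 and 4.20, then 4.46, 4.37 and 4.40. In both conditions every CD103+CD11b- array stood above every CD11b+ array. The untreated differences were 0.85 ± 0.14 from CD103+CD11b+ cells (adjusted p = 0.000388) and 0.81 ± 0.14 from CD103-CD11b+ cells (adjusted p = 0.00042). The DSS differences were 0.91 ± 0.14 (adjusted p = 0.000207) and 0.73 ± 0.14 (adjusted p = 0.00136), and these 4 calls held under all 24 alternatives.

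Mx2 had the same direction with more scatter. Its values were 5.94, 6.16 and 6.64 in untreated CD103+CD11b- cells, 5.09, 4.74 and 6.36 in CD103+CD11b+ cells and 5.43, 5.30 and 6.19 in CD103-CD11b+ cells. With DSS they were 6.08, 6.46 and 5.46, then 4.77, 5.60 and 5.14, then 4.87, 5.52 and 4.93. The CD103+CD11b- array was the highest of its experiment in all 6, while the groups overlapped. The untreated difference from CD103+CD11b+ cells was 0.85 ± 0.36, with an adjusted p of 0.195, and 0.0104 with the replicate block.

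Rsad2 encodes viperin, which makes a chain-terminating nucleotide. Its values were 5.90, 6.73 and 6.47 in untreated CD103+CD11b- cells, 6.02, 6.62 and 6.65 in CD103+CD11b+ cells and 6.62, 7.39 and 6.96 in CD103-CD11b+ cells. Under DSS the values were 6.21, 6.47 and 6.18, then 5.94, 6.33 and 6.37, then 6.61, 7.18 and 6.61. CD103-CD11b+ cells had the highest array of every experiment. The untreated differences of CD103+CD11b- and CD103+CD11b+ cells from them were -0.62 ± 0.24 and -0.56 ± 0.24 (adjusted p = 0.118 and 0.232, and 0.00729 and 0.0308 with the replicate block).

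Samd9l, a restriction factor of poxviruses, was at 7.26, 7.81 and 7.68 in untreated CD103+CD11b- cells, 5.83, 6.78 and 7.14 in CD103+CD11b+ cells and 6.62, 6.78 and 6.85 in CD103-CD11b+ cells. All CD103+CD11b- values were the higher ones. The difference from CD103+CD11b+ cells was 1.00 ± 0.28 (adjusted p = 0.033), and it lost the call without replicate 1 or 2 of untreated CD103+CD11b+ cells or replicate 2 or 3 of untreated CD103+CD11b- cells (adjusted p of up to 0.208). Ifitm3, which blocks fusion of viruses in endosomes, was called only with DSS. There it was at 10.17, 10.38 and 10.29 in CD103+CD11b- cells, 10.79, 10.91 and 11.06 in CD103+CD11b+ cells and 10.84, 10.96 and 10.55 in CD103-CD11b+ cells, the first group below the others. The differences were -0.64 ± 0.15 (adjusted p = 0.0133) and -0.50 ± 0.15 (adjusted p = 0.047). The first was lost without DSS CD103+CD11b- replicate 4 or DSS CD103+CD11b+ replicate 6 (adjusted p of up to 0.075), and the second in 17 of 24 alternatives (adjusted p of up to 0.188), among them the replicate block and the omission of any DSS array but CD103-CD11b+ replicate 6. Its DSS response was not found to differ between subsets, since no interaction was called. Cmpk2, Eif2ak2 and Bst2 had no call. Isg20 and Xaf1 were called only with the replicate block, both lower in untreated CD103+CD11b- than in untreated CD103+CD11b+ cells. For Xaf1 the block also called the untreated difference from CD103-CD11b+ cells, again lower in CD103+CD11b- cells. Bst2, named here after its values were seen, stood at 8.99 in untreated CD103-CD11b+ replicate 2 and at 7.66 and 7.67 in the other replicates of that group.

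Trim30a, a mouse ubiquitin ligase that restrains NF-kappaB signalling, was at 9.13, 9.03 and 9.60 in untreated CD103+CD11b- cells, 7.92, 8.21 and 8.53 in CD103+CD11b+ cells and 8.34, 8.71 and 8.18 in CD103-CD11b+ cells. With DSS it was at 9.05, 9.10 and 8.59, then 8.16, 8.35 and 8.19, then 8.52, 8.58 and 8.31. The CD103+CD11b- arrays exceeded all others of their condition. The untreated differences were 1.04 ± 0.19 from CD103+CD11b+ cells (adjusted p = 0.0012) and 0.84 ± 0.19 from CD103-CD11b+ cells (adjusted p = 0.00553), and both held under all 24 alternatives. The DSS difference from CD103+CD11b+ cells was 0.68 ± 0.19 (adjusted p = 0.0376), and it was lost without DSS CD103+CD11b- replicate 4 or 5 or DSS CD103+CD11b+ replicate 4, 5 or 6 (adjusted p of up to 0.158). Parp9, Parp14 and Dtx3l, which add ADP-ribose or ubiquitin to proteins, had no call.

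The widest subset differences belonged to Lgals3bp and Rtp4. Lgals3bp encodes a secreted glycoprotein that binds galectin-3. It was at 7.23, 7.62 and 7.59 in untreated CD103+CD11b- cells, 8.27, 8.46 and 7.90 in CD103+CD11b+ cells and 9.29, 9.41 and 9.09 in CD103-CD11b+ cells, 3 steps without overlap. The difference between the first and last was -1.78 ± 0.18 (adjusted p = 1.06e-06), between the first and second -0.73 ± 0.18 (adjusted p = 0.0161), and between the second and last -1.05 ± 0.18 (adjusted p = 0.00204). The step between the CD103+ subsets was lost when replicate 1 of untreated CD103+CD11b- cells, or replicate 1 or 2 of untreated CD103+CD11b+ cells, was left out (adjusted p of up to 0.0964). With DSS the values were 7.70, 7.53 and 7.90, then 7.49, 7.92 and 8.02, then 9.29, 8.90 and 9.38. The CD103+ subsets then overlapped, with a difference of -0.10 ± 0.18 (95% interval -0.49 to 0.28), and CD103-CD11b+ cells stayed above both, with differences of -1.48 ± 0.18 for CD103+CD11b- cells (adjusted p = 1.3e-05) and -1.38 ± 0.18 for CD103+CD11b+ cells (adjusted p = 0.000393). The change of the first step with DSS was 0.63 ± 0.26, which was not called (adjusted p = 0.983).

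Rtp4 encodes a chaperone that brings G-protein-coupled receptors to the cell surface. It was at 5.43, 5.80 and 5.61 in untreated CD103+CD11b- cells, 6.36, 6.78 and 7.21 in CD103+CD11b+ cells and 6.90, 7.61 and 6.69 in CD103-CD11b+ cells. With DSS it was at 5.17, 5.94 and 6.10, then 6.16, 6.72 and 6.60, then 6.47, 7.32 and 7.03. In both conditions the CD103+CD11b- arrays lay below all others. Relative to CD103-CD11b+ cells the difference was -1.46 ± 0.28 untreated (adjusted p = 0.00147) and -1.20 ± 0.28 with DSS (adjusted p = 0.00851). Relative to untreated CD103+CD11b+ cells it was -1.17 ± 0.28 (adjusted p = 0.0121). The DSS call was lost without DSS CD103+CD11b- replicate 4 or DSS CD103-CD11b+ replicate 5 (adjusted p of up to 0.0682), and the last when replicate 1 of untreated CD103+CD11b- cells or replicate 3 of untreated CD103+CD11b+ cells was omitted (adjusted p of up to 0.065).

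Markers of other cells moved along the same subset axis. The 10 genes of the type 1 dendritic cell list, such as Xcr1 and Clec9a, averaged 8.16 to 8.23 per array in untreated CD103+CD11b- cells, 6.35 to 6.57 in CD103+CD11b+ cells and 5.83 to 6.11 in CD103-CD11b+ cells, which matches the sort labels. That list includes Itgae, the gene of the sort marker CD103, so part of the match follows from the sort. The 11 measured macrophage genes, such as Csf1r and C1qa, averaged 5.89 to 6.18, 6.78 to 6.98 and 7.70 to 8.42 in the same order, and 6.45 to 6.56, 6.75 to 6.87 and 7.63 to 7.99 with DSS. The 10 genes of the type 2 dendritic cell list averaged 5.42 to 5.56, 7.57 to 7.63 and 7.42 to 7.59 untreated, with group means of 5.75, 7.34 and 7.55 with DSS. The monocyte list, with 8 genes measured, averaged 6.55 to 6.67, 6.81 to 6.89 and 7.19 to 7.52 untreated, and 6.88 to 6.93, 6.84 to 7.12 and 7.62 to 7.77 with DSS. These 3 lists were lower in untreated CD103+CD11b- cells than in either CD11b+ subset, as were Lgals3bp, Rtp4 and Ddx58. The same held for the group means of every other cell type list except the type 1 dendritic cell list. For example, the plasmacytoid dendritic cell list averaged 4.97, 5.38 and 5.39 in the order above, and the stroma and endothelium list 5.19, 5.52 and 5.44. The part of these lists in the differences was not tested, and in sorted bulk samples fewer cells of a type and less RNA per cell cannot be told apart. The 12 epithelial genes, such as Krt8 and Epcam, averaged 7.90 to 9.03 on the arrays of all groups, and the 8 measured B and plasma cell genes averaged 7.69 to 8.23 per array, although the sort gate should hold neither type.

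The differences between experiments followed the members more often than other genes, but few passed the test. Experiment 1 was the lowest untreated experiment for 25 of 35 members, against 25.8% of all genes, while experiments 2 and 3 were the highest for 18 and 16 (33.1% and 30.4% of all genes). Experiment 4 was the lowest DSS experiment for 21 members (31.8% of all genes), and experiment 5 was the highest for 29 (29.6% of all genes). The range over the 3 untreated experiments had a median of 0.40 over members and 0.22 over all genes, and over the DSS experiments 0.37 and 0.19. Limma's moderated F test called 1 member among the untreated experiments, Mx2 (range 1.00, adjusted p = 0.0359), where 0.457% of all genes were called. Among the DSS experiments it called 0 members, where 0.350% of all genes were called. At an unadjusted p under 0.05 there were 14 members (40%) untreated against 11.7% of all genes, and 12 (34.3%) with DSS against 7.75%. The members share arrays and are not independent of each other.

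The IFIT genes, Usp18, Rsad2 and Mx2 had the widest ranges over experiments of a condition together with Oas1a. Over subsets Ifit1 averaged 4.68, 5.64 and 5.19 in experiments 1 to 3, and 4.45, 5.22 and 4.78 in experiments 4 to 6 (adjusted p = 0.0941 and 0.312). Ifit2 averaged 4.90, 5.85 and 5.63 untreated (adjusted p = 0.114), Usp18 5.77, 6.48 and 6.53 (adjusted p = 0.0604) and Rsad2 6.18, 6.91 and 6.69 (adjusted p = 0.0582). Experiment 1 was the low one for these 4 genes. Mx2 instead averaged 5.49, 5.40 and 6.40, high in experiment 3 alone. Its call was lost in 13 of 23 alternatives (adjusted p of up to 0.183), among them a fit of the 9 untreated arrays only and the omission of any untreated array but CD103+CD11b- replicates 2 and 3, and of DSS CD103-CD11b+ replicate 4, 5 or 6, DSS CD103+CD11b- replicate 5 or DSS CD103+CD11b+ replicate 5. A list of other interferon-stimulated genes, which shares none with the 35, averaged 6.13, 6.27, 6.23, 6.09, 6.24 and 6.26 in experiments 1 to 6. It too was lowest in experiments 1 and 4. The interferon-gamma response list averaged 7.11, 7.05, 7.02, 6.96, 7.24 and 7.24, highest in experiment 1 of the untreated and lowest in experiment 4 of the DSS experiments. The T and NK cell list was lowest in experiments 1 and 4 (4.61, 4.69, 4.70, 4.70, 4.78 and 4.82), as was the list of genes that induce interferon (6.32, 6.42, 6.39, 6.41, 6.42 and 6.49). For the latter the margin in experiment 4 was narrow (6.414 against 6.418 in experiment 5). No further list was lowest in experiment 1. The type I interferon genes averaged 3.24, 3.23, 3.38, 3.27, 3.19 and 3.16, and the receptor and JAK-STAT list 8.28, 8.21, 8.24, 8.28, 8.23 and 8.32. The macrophage list averaged 6.90, 7.19, 6.82, 7.14, 6.97 and 6.99. The epithelial list averaged 8.76, 8.84, 8.35, 8.40, 8.12 and 8.37, and the neutrophil list 4.16, 4.03, 3.94, 4.20, 4.58 and 4.99, neither lowest in experiment 1. Their part was not tested.

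**Figure D4:**
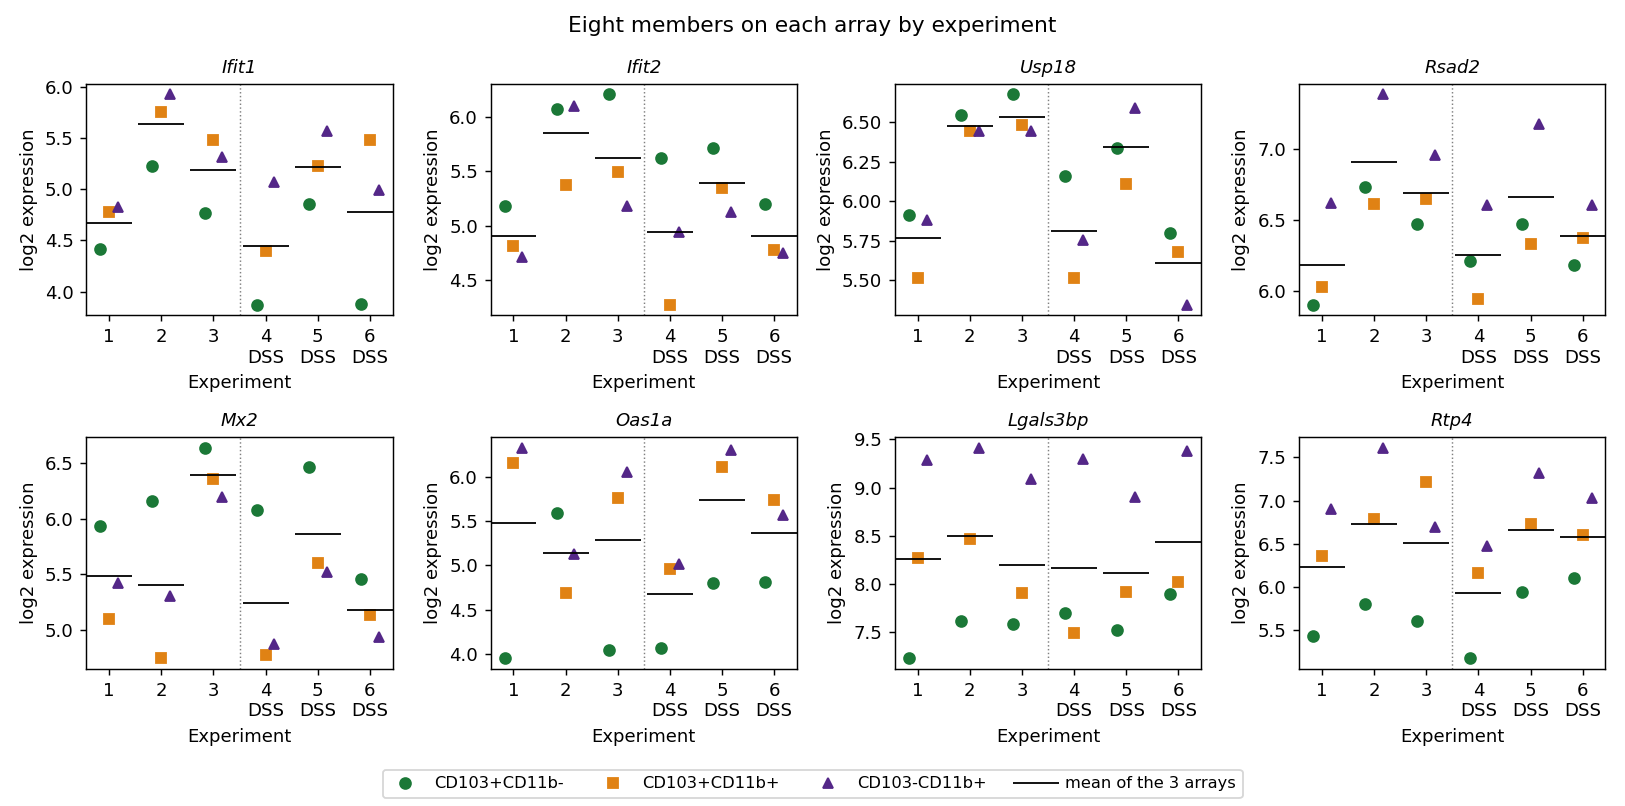
Log2 expression of 8 members on each of 18 arrays by experiment (1 to 3 untreated, 4 to 6 DSS), coloured by subset, with black lines at the mean of the 3 arrays. Ifit1, Ifit2, Usp18 and Rsad2 lie low in experiment 1, Mx2 lies high in experiment 3, Rtp4 is lowest in CD103+CD11b- cells and Lgals3bp highest in CD103-CD11b+ cells of every experiment.

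No member was called between DSS and untreated cells of a subset. Limma called 0 of 35 in CD103+CD11b- cells, 0 in CD103+CD11b+ cells and 0 in CD103-CD11b+ cells, where 0.129%, 0.0857% and 0.100% of all genes were called. At an unadjusted p under 0.05 there were 0, 3 and 1 members, where 6.08%, 10.1% and 7.67% of all genes were (Ddx58, Ifi35 and Lgals3bp, then Irf7, all lower with DSS). The median change was -0.11, -0.11 and -0.14 over members, and 0.02, -0.06 and 0.03 over all genes. The 3 interactions, which ask whether the DSS change differs between subsets, called 0 members and 0% of all genes, and 0, 1 and 1 members had an unadjusted p under 0.05, as did 3.64%, 4.83% and 5.56% of all genes.

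Over all subsets, with each experiment counted once, limma called 0 of 35 members, where 0.186% of all genes were called. Of 35 members 29 had a negative difference and 6 a positive one, where 48.0% of all genes had a positive one. The median difference was -0.13 over members and -0.01 over all genes. At an unadjusted p under 0.05 there were 2 members (10.5% of all genes), Oasl2 at -0.45 ± 0.18 (adjusted p = 0.414) and Irf7 at -0.29 ± 0.11 (adjusted p = 0.408). The 95% intervals of all 35 differences lay between -1 and 1: the highest upper bound was 0.46 (Oas1a) and the lowest lower bound -0.91 (Mx2). Within single subsets the intervals were wider, and 32 of 35 lay between -1 and 1 in CD103+CD11b- cells, 29 in CD103+CD11b+ cells and 32 in CD103-CD11b+ cells, with a lowest bound of -1.31 (Ifit1) and a highest of 1.02 (Oas1a). Of the interactions' intervals, 24 to 28 of 35 did. The untreated and DSS experiments overlapped in score, since experiments 5 and 6 scored above experiment 1.

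**Figure D5:**
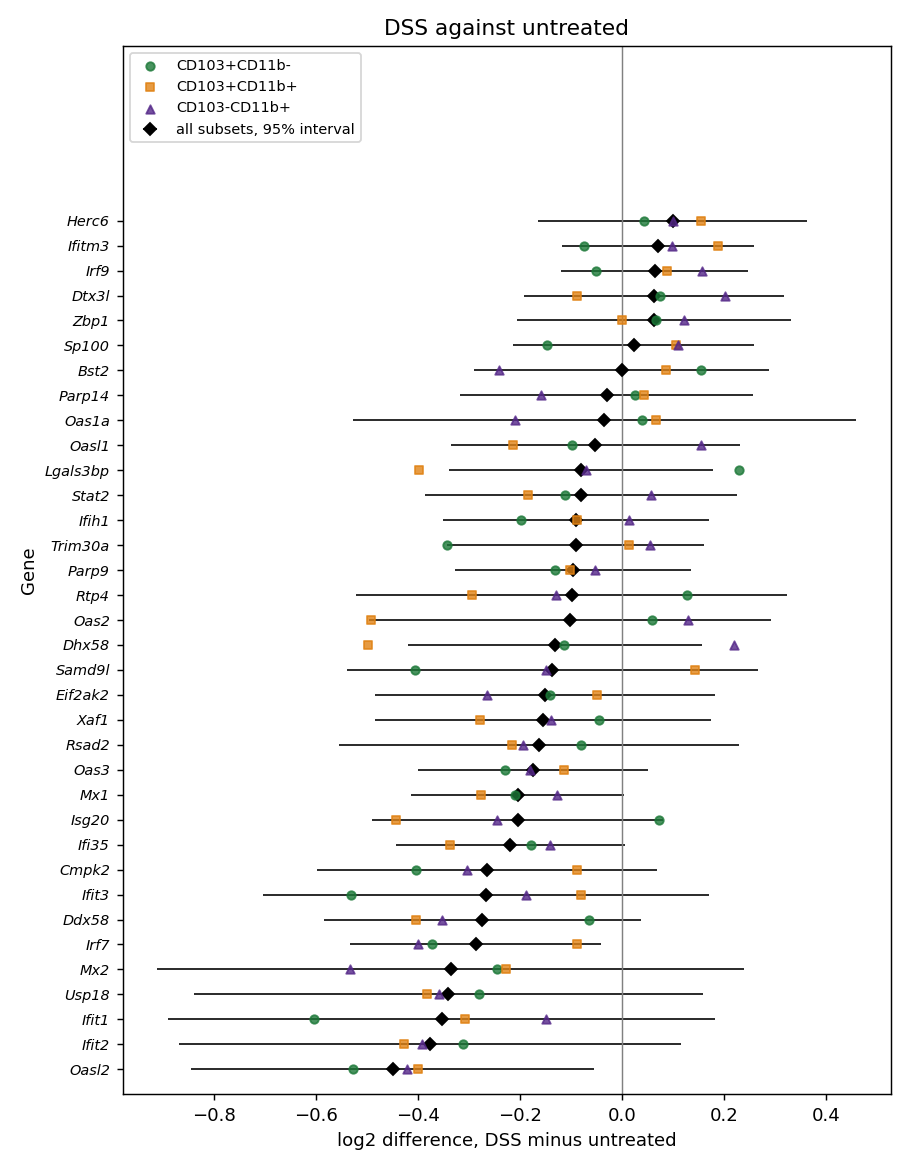
Log2 difference between DSS and untreated cells for each of the 35 genes, ordered by the difference over all subsets (black diamonds, with 95% intervals). Coloured points are the 3 subsets. All intervals lie between -0.91 and 0.46, and 29 of 35 diamonds are below 0.

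The rest of the pathway was read from lists of other genes. Of 13 type I interferon genes with a probe set only 3 were tested, and the mean of the 13 was 3.16 to 3.38 in each experiment, below 3.51, the level set for keeping a probe set. The 3 tested genes averaged above that level over the 18 arrays: Ifna5 at 5.05, Ifna9 at 4.33 and Ifna14 at 3.93. The type II interferon gene Ifng averaged 4.56 and the type III gene Ifnl2 5.72. Ifnb1, the gene of interferon beta, averaged 2.72 to 2.87 in the groups. Of 10 receptor and JAK-STAT genes, 3 were higher and 0 lower when untreated CD103+CD11b- cells were set against CD103-CD11b+ cells (5.01% and 5.32% of all genes): the kinases Tyk2 by 1.02 ± 0.19 (adjusted p = 0.000853) and Jak2 by 0.56 ± 0.12 (adjusted p = 0.00549), and the receptor chain Ifnar1 by 0.50 ± 0.14 (adjusted p = 0.0267). Ifnar1 lost the call with replicate 1 or 2 of the first group or replicate 2 or 3 of the second left out. With DSS the Tyk2 difference was 1.02 ± 0.19 (adjusted p = 0.000944). Ifnar2, the second chain, differed by -0.54 ± 0.14 between the untreated CD11b+ subsets, lower in CD103+ cells (adjusted p = 0.0389), a call lost in 9 of 24 alternatives, the replicate block included.

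Genes that induce interferon split between the subsets. Of 16, 3 were higher and 6 lower in that untreated contrast, against 5.01% and 5.32% of all genes. Higher were the transcription factor Irf8 by 1.29 ± 0.18 (adjusted p = 6.22e-05), the double-stranded RNA receptor Tlr3 by 1.18 ± 0.17 (adjusted p = 7.54e-05) and Irf5 by 0.71 ± 0.14 (adjusted p = 0.00137), of which Irf8 and Tlr3 also mark type 1 dendritic cells. The lipopolysaccharide receptor Tlr4 differed by -1.96 ± 0.21 (adjusted p = 2.16e-06). The RNA receptors Tlr7 and Tlr8 were also lower, and since their means in CD103+CD11b- cells lay below 3.51 only the levels are given: 3.42 against 4.99 for Tlr7 and 2.44 against 4.63 for Tlr8. The DNA receptor Tlr9 differed by -0.84 ± 0.19 (adjusted p = 0.00691), and lost the call without untreated CD103+CD11b- replicate 1. With DSS, 3 were higher (Irf8, Tlr3, Irf5) and 3 lower (Tlr4, Tlr8, Tlr7), against 4.19% and 4.34% of all genes.

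Other interferon-stimulated genes, a list of 42 tested that shares no gene with the 35, had 2 higher and 6 lower in the same untreated contrast, beside 5.01% and 5.32% of all genes. Higher were Epsti1 by 0.88 ± 0.15 (adjusted p = 0.000364) and Slfn5 by 0.82 ± 0.25 (adjusted p = 0.0463), the latter call lost in 13 of 24 alternatives. The lower genes with the widest difference were Ms4a4c at -1.71 ± 0.20 (adjusted p = 4.93e-06), Ifitm1 at -0.83 ± 0.19 (adjusted p = 0.00641), Ifi27l2a at -0.80 ± 0.22 (adjusted p = 0.0226) and Lgals9 at -0.77 ± 0.19 (adjusted p = 0.0135). Leaving out untreated CD103+CD11b- replicate 2 ended the Ifitm1 call, leaving out CD103-CD11b+ replicate 2 the Lgals9 call, and leaving out CD103+CD11b- replicate 2 or 3 or CD103-CD11b+ replicate 1 or 3 the Ifi27l2a call. The median difference over the 42 was -0.04. With DSS 2 were higher and 7 lower, beside 4.19% and 4.34% of all genes. Among the 20 tested interferon-gamma response genes 5 were higher and 1 lower untreated (5.01% and 5.32% of all genes), led by the peptide transporter Tap1 at 1.32 ± 0.17 (adjusted p = 1.79e-05), the proteasome subunit gene Psmb9 at 1.15 ± 0.33 (adjusted p = 0.033, lost in 6 of 24 alternatives), the chemokines Cxcl11 at 1.09 ± 0.19 and Cxcl9 at 1.08 ± 0.19, and 5 higher and 1 lower with DSS (4.19% and 4.34% of all genes). No gene of these lists was called between DSS and untreated cells in any subset. Across the DSS experiments the schlafen gene Slfn4 was called, with means of 3.41 in experiment 4 and 4.93 in experiment 6 (range 1.51, adjusted p = 0.00693), and it lost the call without DSS CD103+CD11b- replicate 4 or DSS CD103-CD11b+ replicate 4.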

How the data were processed

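Gene expression was measured on 18 Affymetrix arrays, 3 for each of 6 groups taken from the array titles. The deposited values are on the log2 scale, and the submitters' processing notes name RMA, a method that background-corrects, quantile-normalizes and summarizes probe sets. Its version and the genome build were not given in the sources used here. RMA compresses differences of dim probe sets, and the table holds no detection calls. Array medians ran from 3.99 to 4.09, and the number of arrays limits the precision.

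Of 34760 probe sets, 21640 had 1 gene symbol, 1321 had several and 11799 none in the platform annotation, and those with 1 symbol were used (19937 genes). A probe set was kept above the 40th percentile of all values (3.51) in at least 3 arrays, and the one with the highest mean stood for a gene, leaving 14003. All 35 members passed, and 34 lay above that level on all arrays.

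One limma model (version 3.58.1, R 4.3.3) with 6 group means was fitted to all 14003 genes, two-sided, with Benjamini-Hochberg adjustment in each of 15 comparisons. DSS over all subsets used the mean of each experiment, and differences among experiments used a moderated F test. Errors are standard errors. The code was tested on simulated data. The members and lists were chosen with earlier results of these data known. Members are described on every array for the 6 with the widest range of group means and the 4 others with the widest range over experiments, every called member is named, and up to 4 called genes per direction of other lists.

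Experiment numbers were taken as pairing the subsets of a condition, since the titles number experiments. Residuals of arrays sharing a number correlated across genes at -0.03 to 0.32 untreated (median 0.25, 8 of 9 pairs over 0.1) and 0.11 to 0.31 with DSS (median 0.18), against medians of -0.12 and -0.13 for other pairs. The number was also fitted as a block. Promoters came from RefSeq (GRCm38.p6). Alternatives were no filter, averaged probe sets, repeated quantile normalization, a trended robust spread, fitting only the groups compared, and leaving out each array.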

Additional observations from a re-analysis of the deposited data

How the results depend on the processing

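With the experiment number as a replicate block, 10 members instead of 6 were called for untreated CD103+CD11b- against CD103-CD11b+ cells, 11 instead of 7 for the same cells against CD103+CD11b+ cells, and 2 instead of 1 between the untreated CD11b+ subsets. With DSS the block gave 9 instead of 4, 10 instead of 4 and 2 instead of 1. It changed no count of DSS against untreated or of the interactions. Leaving out 1 array at a time gave 6 to 8, 4 to 8 and 1 to 2 calls in the 3 untreated contrasts and 2 to 5, 2 to 4 and 1 to 1 in the DSS contrasts. Among untreated experiments it gave 0 to 2, and among DSS experiments 0 to 1. Among untreated experiments the count was 3 with quantile normalization applied again, 2 with a trended robust spread and 0 with only the 9 arrays of the condition, which have fewer residual degrees of freedom. Among DSS experiments it was 1 with only their 9 arrays. The cause of the other shifts was not tested. The counts of DSS against untreated and of the interactions were 0 under every alternative run. Of 24 member calls 13 held in every alternative, 70 of 575 repeats fell below the threshold and 0 changed direction. All 81 alternative score differences lay within 1 SD of the reported ones, taken from the scatter of arrays within the groups compared. The SDs of the groups were 0.14 to 0.22, while the largest reported difference was -0.17. A difference could therefore vanish and still lie within 1 SD. Leaving out 1 array still moved the untreated score difference of CD103+CD11b- cells from CD103-CD11b+ cells from -0.11 to between -0.18 and -0.02, and that of CD103+CD11b+ cells from CD103-CD11b+ cells from -0.12 to between -0.22 and -0.0067. For CD103+CD11b- against CD103+CD11b+ cells it changed the sign (0.011 reported, -0.11 to 0.11 untreated, and 0.028 reported, -0.088 to 0.12 with DSS). Leaving out 1 array unpairs its experiment, so these ranges also take in differences between experiments. Within experiments the last pair differed by 0.05, 0.08 and -0.10 untreated and by 0.17, 0.01 and -0.10 with DSS. Members near 3.51, such as Cmpk2 and Oas3, are dim, and with no detection calls a small difference there cannot be told from background.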
